A study of Cardamine sp. SIM-2007 with 7 samples.

Results

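In Cardamine kokaiensis, a crucifer related to Arabidopsis, the genes described here stood apart in primordia of intermediate (INT) flowers from the primordia of both cleistogamous (CL) and chasmogamous (CH) flowers. A gene was taken when both INT arrays lay above, or both below, all 4 CL and CH arrays and the INT mean differed from the CL mean and from the CH mean by at least 1 log2 unit in that direction. Of 13513 probe sets that the platform annotation ties to a single gene, 237 met this rule, 116 higher (0.858%) and 121 lower (0.895%) in INT, each from a different gene. The genes were thus chosen by their levels on the same 6 RNA arrays, and the distances of INT from CL and CH below are descriptions and carry no test.

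RNA came from primordia of the first inflorescence, with 160 primordia pooled per sample and 2 biological replicates per flower type, and was hybridized to Arabidopsis ATH1 arrays. INT flowers followed 14 days of chilling after germination. CL flowers followed 28 days of chilling after germination, and CH flowers 14 days before germination, so that flower type and chilling regime cannot be told apart. One more array held genomic DNA from leaves of plants without chilling. The labels name no genotype or age, and all RNA samples came from chilled plants. Levels are given as log2(intensity + 28.2) after quantile normalization, and in pooled tissue fewer cells of a type and less RNA per cell cannot be told apart.

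A CL flower stays closed and pollinates itself, while a CH flower opens its petals and can be cross-pollinated. Plants that make both kinds shift between them with season and environment, and flowers of a transitional form can appear between these states. A gene that lies outside the range of both, as opposed to between them, is not on a straight line from open to closed flowers. Of 16 flower primordium markers, the annotation named 4. Their mean RNA levels lay at percentiles 60.0 (UFO), 51.8 (JAG), 39.5 (ROXY1) and 23.7 (CLV3) of all probe sets with 1 gene. UFO, which helps to form petals and stamens, averaged 8.40 in INT, 7.93 in CL and 9.02 in CH, and CLV3, a stem cell peptide, 6.43, 7.27 and 6.24 in the same order of flower types; JAG and ROXY1 averaged 8.10 and 7.60 in INT. Markers of other tissues were also measured. Of 6 leaf and green tissue markers, 2 were named: RCA, which activates Rubisco, measured 12.10 and 12.03 in INT, above 11.33 and 11.05 in CL and 10.54 and 11.49 in CH, while PSAN, a photosystem I subunit, averaged 13.12 in INT, 13.08 in CL and 12.87 in CH and overlapped between types. Of 6 late anther and pollen markers, 3 were named. AMS, a regulator of the tapetum, averaged 8.87 in INT, 8.27 in CL and 7.95 in CH, ROXY2 averaged 8.14, 7.89 and 7.53, and AGL66 averaged 7.23, 7.80 and 6.80 in the same order of types. BAN, the 1 of 4 ovule and seed markers named, averaged 5.81 in INT, 5.78 in CL and 6.10 in CH, at percentile 11.1. None of 4 root markers was named. None of these markers met the rule, and their part in the genes set apart was not tested.

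The same rule was applied with each flower type in turn. It found 237 genes for INT (1.75% of the 13513), 152 for CL (1.12%) and 154 for CH (1.14%). The CL genes were 68 higher (0.503%) and 84 lower (0.622%), and the CH genes 62 higher (0.459%) and 92 lower (0.681%). Without the distance of 1 log2 unit, both INT arrays lay beyond all 4 others for 904 probe sets on the high side (6.69%) and 1052 on the low side (7.79%), which is 14.5% together. CL had 5.68% on the high and 5.59% on the low side (11.3% together), and CH 6.51% and 5.25% (11.8%). INT thus had the most genes set apart in each direction, but not always by much. Without the distance its share on the high side was near that of CH (6.69% against 6.51%). With median scaling in place of quantile normalization, the rule found 110 genes lower in INT and 104 lower in CH. The INT arrays also resembled each other more than the arrays of the other types. Their median replicate difference was 0.325 log2 units, against 0.388 in CL and 0.375 in CH, and their correlation across probe sets was 0.926, against 0.914 and 0.918; the part of this closeness in the counts was not tested. Single arrays moved the INT counts by over 1.5 times: 178 genes were higher without CL replicate 2, 329 higher and 412 lower without INT replicate 1, and 301 and 368 without INT replicate 2, where a single INT array has to clear the others.

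**Figure D1:**
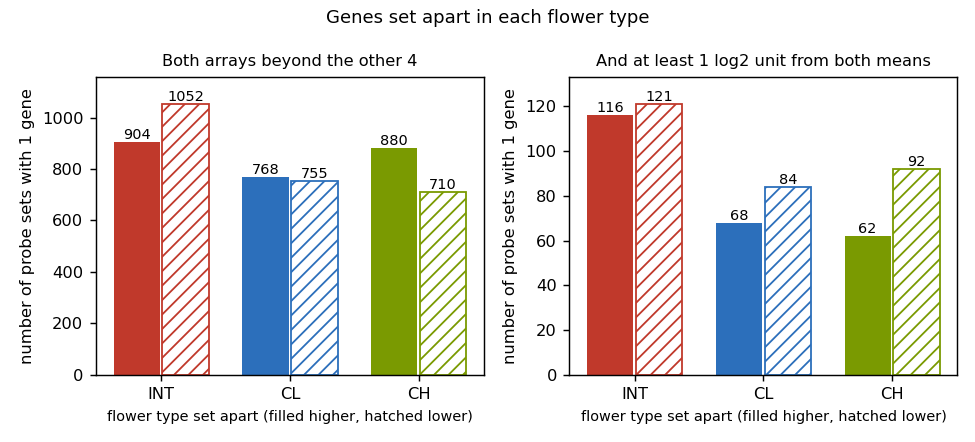
Number of probe sets with 1 gene (vertical axes) set apart in INT, CL and CH primordia, higher as filled bars and lower as hatched bars, without (left) and with (right) the distance of 1 log2 unit from both other means. INT has 116 higher and 121 lower genes on the right, against 68 and 84 for CL and 62 and 92 for CH.

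limma, fitted across all 22746 probe sets that are not array controls, called 0 (0%) in INT against CL and 0 (0%) in INT against CH at an adjusted p under 0.05. At an unadjusted p under 0.05 there were 1001 (4.4%) and 1082 (4.76%). None of the genes described here was therefore called on its own by a test over the whole array, and with 2 arrays per type the number of arrays limits the precision.

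Among the 116 genes higher in INT, the INT mean exceeded the nearer of the CL and CH means by a median of 1.19 log2 units, up to 2.15. AT1G73050 had the largest distance, with levels of 8.40 and 7.75 in INT, 6.22 and 5.63 in CL and 5.94 and 5.77 in CH. AT1G36095 measured 7.71 and 7.90 in INT, 5.71 and 5.73 in CL and 5.75 and 5.31 in CH. Its lowest INT array stood 1.96 log2 units above the highest other array, the widest gap of all 237 genes. AT5G10770 measured 7.62 and 7.62 in INT, 5.98 and 5.72 in CL and 5.72 and 5.40 in CH, and AT4G11400 measured 7.61 and 7.64 in INT, 5.38 and 5.84 in CL and 6.14 and 5.72 in CH. In each of these the spread within a flower type was small beside the step to INT. In deposited intensities the step of AT1G36095 was 177 and 216 in INT, against 27.0 and 22.6 in CL and 27.5 and 10.2 in CH. On the genomic DNA array AT1G36095 and AT5G10770 were weak, with log2 intensities of 5.28 and 5.80. AT1G73050 and AT4G11400 had 9.41 and 9.75, against a median of 8.59 for all probe sets with 1 gene.

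The gene that the annotation names PGM, a symbol used for more than one enzyme, had levels of 8.36 and 8.81 in INT, 6.90 and 6.50 in CL and 5.87 and 6.66 in CH. On this scale, which includes the offset, its INT mean was 3.70-fold above the CL mean, the nearer of the others. The deposited intensities were 291 and 425 in INT and 92.2 and 60.1 in CL, so the offset makes this fold smaller than the ratio of the readings. SAE1A, a subunit of the enzyme that activates the small modifier protein SUMO, measured 8.86 and 7.97 in INT, 6.25 and 6.20 in CL and 7.66 and 5.76 in CH. Here CH replicate 1 came within 0.31 of the lower INT array, while both CL arrays stayed far below, and SAE1A did not meet the rule without CH replicate 2. AT3G63050 (distance 1.75), AT1G44970 (1.61), AT5G39020 (1.57), AT2G04670 (1.56), AT1G14180 (1.56) and AT1G76290 (1.53) complete the 12 genes with the largest distances on the high side.

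ZYP1b, DFO and ATLIG4 act on chromosomes and DNA, and each lost the rule when some single array was left out. ZYP1b, a filament protein of the synaptonemal complex that joins paired chromosomes, measured 7.69 and 7.72 in INT, 5.61 and 7.42 in CL and 5.69 and 7.63 in CH. Replicate 2 of both CL and CH lay close under the INT arrays, with a gap of 0.053, and replicate 1 of both lay about 2 log2 units lower. ZYP1b no longer met the rule without CL replicate 1 or without CH replicate 1. DFO, which in Arabidopsis is needed to form the DNA breaks of meiosis, measured 7.44 and 8.36 in INT, 6.36 and 7.29 in CL and 6.96 and 5.57 in CH, with a gap of 0.151. DFO did not meet the rule without INT replicate 2, CL replicate 1 or CH replicate 2. ATLIG4, the DNA ligase of end joining, measured 8.73 and 8.37 in INT, 6.12 and 6.15 in CL and 7.88 and 6.67 in CH. ATLIG4 did not meet the rule without CH replicate 2. It was among the 3 genes of the 237 with CL and CH means more than 1 log2 unit apart, the others being AT1G03390 and AT4G11210.

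In the meiosis and recombination list, 1 of 6 measured genes, ZYP1b, met the rule, where 1.75% of all probe sets with 1 gene did so. No test was made of this or any other list, and the lists were chosen with earlier results of these data known. For the other 5 genes of the meiosis list the INT arrays overlapped those of CL or CH. ATSPO11-1, which cuts DNA to start recombination, stood 0.05 below CL and 0.83 above CH in INT, and SPO11-2, its partner, lay at the CL mean and 0.51 below CH. The list median of INT minus the mean of CL and CH was 0.23, against -0.01 over all probe sets with 1 gene. DFO and ATLIG4 are outside that list.

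SAP, an F-box protein of inflorescence and flower development whose loss makes flowers sterile, measured 7.97 and 7.92 in INT, 5.73 and 7.44 in CL and 6.32 and 7.56 in CH. As with ZYP1b, replicate 2 of CL and CH lay nearer to INT than replicate 1, and SAP did not meet the rule without INT, CL or CH replicate 1. None of the 51 measured probe sets of the floral meristem and organ identity list met the rule, where 1.75% of all probe sets with 1 gene did so. By less, 3 lay above and 1 below all other arrays in INT, where 6.69% and 7.79% of all did so. No measured gene of the flowering time list (4) or of the stamen, tapetum and pollen list (7) met the rule. At the share of all probe sets, few or no members would be looked for in lists of these sizes.

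Of genes that act at membranes and the cytoskeleton, NET3B, of a family that binds actin, measured 7.09 and 6.96 in INT, 5.81 and 5.40 in CL and 5.93 and 5.07 in CH. NTMC2T6.1, a membrane protein with C2 domains, measured 7.08 and 7.05 in INT, 5.27 and 5.99 in CL and 5.28 and 5.32 in CH. Both INT arrays of these 2 genes stood more than 1 log2 unit above every other array. CCT2, which makes a precursor of phosphatidylcholine, measured 7.54 and 5.69 in INT, 5.37 and 5.34 in CL and 5.45 and 5.39 in CH. The distance of CCT2 rests on INT replicate 1, and the gene no longer met the rule without it.

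The plastid gene rps16, for a protein of the small ribosomal subunit, measured 8.71 and 8.81 in INT, 6.74 and 8.51 in CL and 7.25 and 7.16 in CH. CL replicate 2 lay 0.203 under the nearest INT array, and the rule was not met without CL replicate 1. Of the 16 measured genes of the ribosomal protein and translation list, most of them plastid genes, rps16 alone met the rule (6.25%, against 1.75% of all probe sets with 1 gene, not tested). The list median was -0.10.

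**Figure D2:**
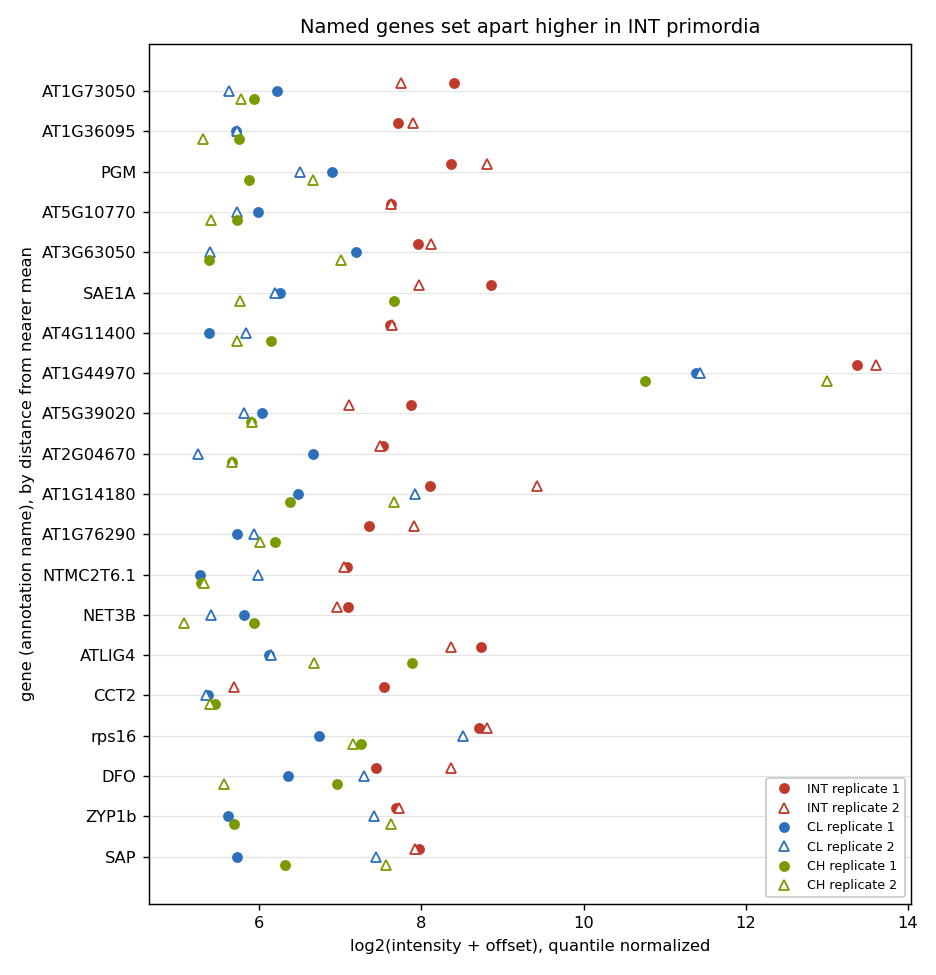
Level of the named genes set apart higher in INT, on the axis of log2(intensity + 28.2) after quantile normalization, for each of 2 INT (red), 2 CL (blue) and 2 CH (green) arrays; circles are replicate 1 and open triangles replicate 2. The red points lie right of all others in every row, by 1.96 for AT1G36095 and by 0.053 for ZYP1b.

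Among the 121 genes lower in INT, the INT mean lay below the nearer of the other means by a median distance of -1.19, down to -2.06. AT4G11175 had the largest distance, with levels of 5.52 and 5.93 in INT, 8.13 and 7.81 in CL and 7.90 and 7.68 in CH. AT1G72390 measured 6.65 and 5.67 in INT, 7.85 and 8.30 in CL and 8.29 and 8.64 in CH. AT5G44770 measured 5.64 and 5.72 in INT, 7.85 and 7.18 in CL and 8.58 and 8.30 in CH. In AT5G44770 all CH arrays also lay above all CL arrays, so the order of levels was INT, CL, CH from low to high. The same order held for AT3G22240, at 6.48 and 6.66 in INT, 8.47 and 8.30 in CL and 9.25 and 9.26 in CH.

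In deposited intensities AT4G11175 read 16.5 and 34.6 in INT, against 268 and 180 in CL and 225 and 168 in CH. AT2G07620 read 9.06 and 15.3 in INT, against 136 and 123 in CL and 88.0 and 131 in CH. INT readings of both genes were of the size of the offset of 28.2 or below it, so the log2 distance understates the ratio of the readings. AT1G10875 (distance -1.71), AT1G07795 (-1.69), AT3G61670 (-1.69), AT4G21240 (-1.67), AT3G27700 (-1.61) and AT3G05570 (-1.61) also belong to the 12 largest on the low side.

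The genes lower in INT with a named link to jasmonate were OPCL1, JMT and JRG21, and each lost the rule when some single array was left out. OPCL1, which activates precursors of jasmonate for shortening in the peroxisome, measured 9.13 and 6.35 in INT, 9.32 and 9.66 in CL and 9.69 and 9.15 in CH. Its distance of -1.68 came from INT replicate 2, since INT replicate 1 stood only 0.019 under the nearest CH array, and OPCL1 no longer met the rule without INT replicate 2. JMT, which turns jasmonate into its methyl ester, measured 5.38 and 5.88 in INT, 7.11 and 7.40 in CL and 5.95 and 7.43 in CH. CH replicate 1 lay 0.07 above the nearest INT array, and JMT did not meet the rule without INT replicate 1 or CH replicate 2. JRG21, named as a jasmonate-regulated gene, measured 5.37 and 5.54 in INT, 7.97 and 7.70 in CL and 7.82 and 6.13 in CH, and did not meet the rule without CH replicate 1.

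Of 4 measured genes in the jasmonate and salicylate list, OPCL1 and JMT met the rule, against 0.895% of all probe sets with 1 gene on the low side. The list is small and was chosen with earlier results of these data known, so this share is a description and was not tested. JRG21 is outside the list. The remaining list members were MYC3 and MYC4, transcription factors of jasmonate signalling. MYC3 averaged 0.36 above CL and 0.33 above CH in INT, and MYC4 0.46 and 0.05 above them. These INT means lay on the opposite side from OPCL1 and JMT, and the INT arrays overlapped those of the other types.

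IAA31, of the Aux/IAA family of auxin response repressors, measured 6.64 and 6.28 in INT, 7.55 and 7.51 in CL and 8.0 and 7.89 in CH. No array of one flower type overlapped another, in the order INT, CL, CH, but IAA31 did not meet the rule without INT replicate 2. IAA31 was the 1 gene of 15 in the auxin list that met the rule (6.67%, against 1.75% of all probe sets with 1 gene, not tested). YUC4, an enzyme of auxin synthesis, also lay below all other arrays in INT, at 8.36 and 8.39 against 8.69 and 9.06 in CL and 8.75 and 8.79 in CH, but by less than 1 log2 unit. IAA20, a relative of IAA31, had the opposite sign, with INT means 1.05 above CL and 1.58 above CH, and its INT arrays of 8.58 and 6.83 overlapped the CL arrays of 6.09 and 7.21. The median of the auxin list was -0.24.

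XIJ, a class XI myosin that moves along actin, measured 7.01 and 7.26 in INT, 8.74 and 8.49 in CL and 9.0 and 8.81 in CH. The gap to the nearest other array was -1.24. It was the 1 member among 45 measured probe sets of the list for cell cycle, chromatin and cytoskeleton (2.22%, against 1.75% of all probe sets with 1 gene). PRA1.G1, of a family of Rab-interacting proteins of vesicle transport, measured 6.58 and 6.56 in INT, 8.62 and 7.59 in CL and 8.22 and 8.08 in CH. Both genes met the rule whichever single array was left out.

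Enzymes lower in INT included SAL2, a relative of the phosphatase SAL1, at 5.79 and 6.04 in INT, 7.84 and 7.84 in CL and 8.24 and 6.44 in CH, of which the higher one was needed for the rule. UGT71C3, a glycosyltransferase for small molecules, measured 5.67 and 5.56 in INT, 7.53 and 6.81 in CL and 6.70 and 6.79 in CH. UGT71C3 was the 1 member among 67 measured probe sets of the list for flavonoid, phenylpropanoid and glucosinolate genes (1.49%, against 1.75% of all probe sets with 1 gene). That list holds many glycosyltransferases. ATL63, of a family of RING-type ubiquitin ligases, measured 6.39 and 5.98 in INT, 7.10 and 7.73 in CL and 6.61 and 7.99 in CH. It was the 1 member among 67 of the ubiquitin and protein degradation list (1.49%, again against 1.75%). ATL63 did not meet the rule without replicate 2 of INT, of CL or of CH.

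Of genes that act in RNA synthesis and splicing, MED6, a subunit of the Mediator complex that links transcription factors to RNA polymerase, measured 5.31 and 5.53 in INT, 7.09 and 6.09 in CL and 6.08 and 7.48 in CH. PRP39-2, a homologue of a yeast splicing factor, measured 6.02 and 6.81 in INT, 7.97 and 7.22 in CL and 8.15 and 7.33 in CH. In MED6 the CH arrays lay further apart than INT lay from the nearer mean, and in PRP39-2 replicate 1 was the higher in both CL and CH. MED6 did not meet the rule without CL replicate 1 or CH replicate 2, nor did PRP39-2 without replicate 1 of INT, of CL or of CH.

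**Figure D3:**
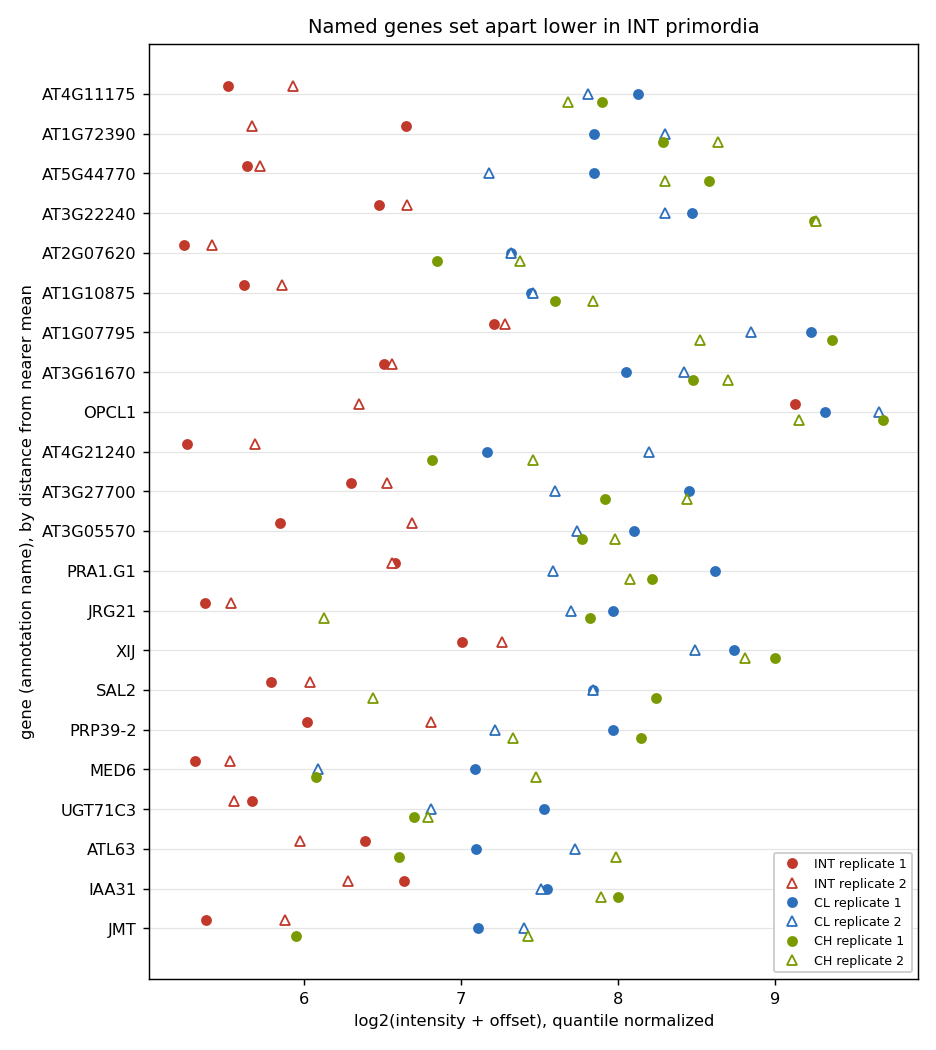
Level of the named genes set apart lower in INT, on the axis of log2(intensity + 28.2) after quantile normalization, for each of 2 INT (red), 2 CL (blue) and 2 CH (green) arrays; circles are replicate 1 and open triangles replicate 2. The red points lie left of all others in every row, and OPCL1 shows INT replicate 1 at 9.13 beside the CH array at 9.15.

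Over the 29 gene lists together, 535 probe sets were measured and 9 met the rule, 3 higher and 6 lower in INT, in 8 of the lists. That is 1.68%, close to the 1.75% of all probe sets with 1 gene. Most of the set has no gene symbol in the annotation: 21 of the 237 (8.86%) had one, against 11.7% of all probe sets with 1 gene.

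The genes set apart in INT were dim on the RNA arrays. The mean log2 level over the 6 arrays had a median of 6.65 for the genes higher in INT and 7.17 for those lower, against 8.01 over all probe sets with 1 gene. Of the higher genes 50.9% fell in the dimmest quartile of RNA level and 41.4% in the next. Of the lower genes 22.3% and 65.3% did so. The brightest of the 6 arrays read under 500 for 90.3% of the 237 genes, against 62.9% of all. Since INT values enter these levels, the mean over the CL and CH arrays is given as well. Its median was 6.20 for the higher and 7.66 for the lower genes, against 8.03. The rule used the CL and CH arrays too, below INT for the higher and above it for the lower genes. The difference in level between the directions is therefore partly set by how the genes were chosen.

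Genomic DNA intensity, which the rule did not use, was also on the low side. Its median log2 value was 8.15 for genes higher in INT and 7.93 for genes lower in INT, against 8.59 for all probe sets with 1 gene. In the dimmest quartile of genomic DNA lay 38.8% of the higher and 41.3% of the lower genes. Weak signal from Cardamine DNA was thus more common among both groups, on 1 array without a replicate, and its part in the distances was not tested. IAA31, JMT, SAL2, ATLIG4 and rps16 had log2 genomic DNA intensities of 9.48, 10.02, 10.06, 10.62 and 11.74, all above the median. MED6 (5.14), AT1G36095 (5.28), NET3B (5.32) and SAE1A (5.68) lay near the lowest value of all, 4.90.

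**Figure D4:**
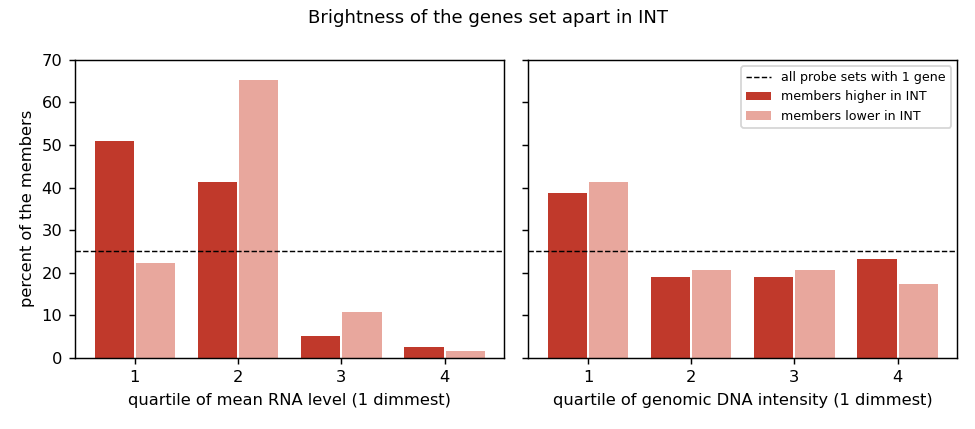
Percent of the genes set apart higher (dark) and lower (light) in INT that fall in each quartile of mean RNA level (left) and of genomic DNA intensity (right) of all probe sets with 1 gene; the dashed line marks the 25% of that background. On the left 50.9% of the higher genes fall in quartile 1 and 65.3% of the lower genes in quartile 2.

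Only 17 of the 237 genes had a mean RNA level at or above the median of all probe sets, 7 higher and 10 lower in INT, and they are named here after their values were seen. AT1G44970 was the brightest, with deposited intensities of 10899 and 11630 in INT, 2546 and 2916 in CL and 1629 and 7803 in CH. The CH arrays of AT1G44970 lay far apart, and the gene no longer met the rule without CH replicate 1. AT3G07450 measured 11.62 and 11.47 in INT, 10.47 and 10.40 in CL and 9.43 and 11.06 in CH, again with a low CH replicate 1. AT1G04910 measured 11.54 and 10.94 in INT, 9.87 and 10.34 in CL and 9.81 and 10.20 in CH, and both CL and CH had the lower value on replicate 1. The other bright genes higher in INT were AT1G10330, AT3G52130, AT3G11560 and AT2G43210, with distances between 1 and 1.5.

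On the low side, AT2G45340 measured 8.31 and 8.13 in INT, 9.54 and 9.43 in CL and 9.34 and 9.43 in CH. Within each flower type its arrays differed by less than 0.2 log2 units, and INT lay 1.16 below the nearer mean. AT1G47310 measured 7.34 and 7.82 in INT, 9.07 and 8.97 in CL and 9.12 and 9.42 in CH. AT1G07795 measured 7.21 and 7.28 in INT, 9.23 and 8.85 in CL and 9.36 and 8.52 in CH. With XIJ, these are the 4 bright genes that met the rule whichever single array was left out, all of them lower in INT. The other bright genes lower in INT were OPCL1, AT2G05600, AT3G53940, AT2G03690, AT2G31390 and AT3G22870.

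**Figure D5:**
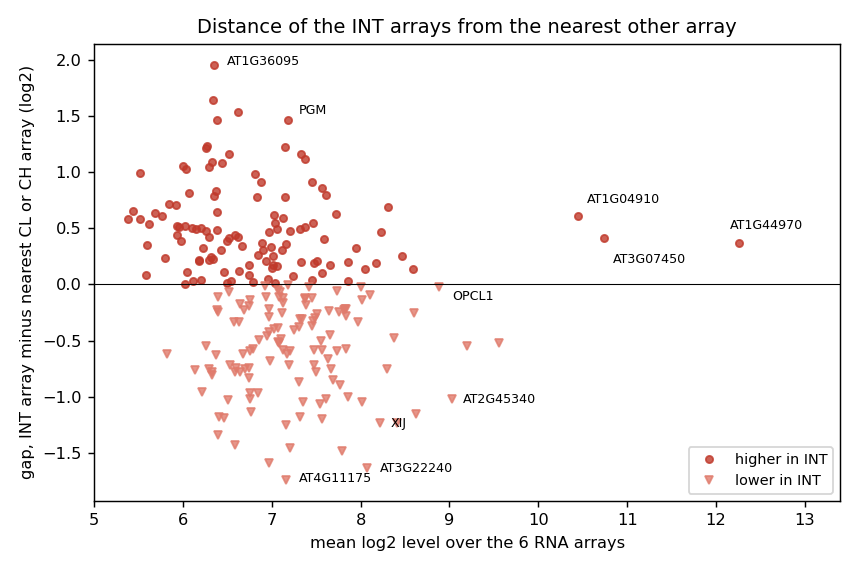
Gap between the INT arrays and the nearest CL or CH array in log2 units (vertical axis) against the mean log2 level over the 6 RNA arrays (horizontal axis), a circle for each of 116 genes higher and a triangle for each of 121 genes lower in INT. The widest gap in each direction, 1.96 for AT1G36095 and -1.74 for AT4G11175, belongs to a dim gene, and OPCL1 lies next to the line at 0.

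The gap between INT and the nearest other array had a median of 0.44 for the higher and -0.55 for the lower genes. It exceeded 1 log2 unit for 16 higher and 23 lower genes. These are all 39 such probe sets with 1 gene (0.289%), since a gap of that size always meets the rule. It was under 0.1 for 13 higher (11.2%) and 10 lower genes (8.26%). Over all probe sets with 1 gene 5.88% had a gap under 0.1, but most of those have no gap because their arrays overlap. With each array left out in turn, 23 of the 116 higher and 29 of the 121 lower genes met the rule every time. Leaving out an array cannot make the other arrays of these genes overlap, so only the distance of 1 log2 unit could fail. The counts re-apply the rule to the values that chose the genes, and are a description and no independent support. The genes that met it every time included AT1G73050, AT1G36095, PGM, NET3B and NTMC2T6.1 on the high side. On the low side they included AT4G11175, AT3G22240, XIJ, PRA1.G1 and UGT71C3. Without INT replicate 2 the rule still held for 80 of the higher and 77 of the lower genes, the lowest number on the low side. On the high side the lowest number was 79, without CL replicate 1. At the threshold, AT4G11210 (1.0003) and AT1G70450 (1.0052) were just inside on the high side and AT1G72110 (0.9992) and AT1G74460 (0.992) just outside. On the low side AT5G59190 (-1.0002) and AT1G05320 (-1.0056) were just inside and AT2G39360 (-0.9966) and AT5G12280 (-0.9913) just outside.

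The 2 INT arrays agreed less for these genes than for others. Their difference was within 0.5 log2 units for 56.0% of the higher and 49.6% of the lower genes, against 65.0% of all probe sets with 1 gene. It exceeded 1 for 14.7% of the higher genes, near the 13.8% of all, and for 27.3% of the lower genes. For the higher genes this was not particular to INT. Their median replicate difference was 0.45 in INT, 0.58 in CL and 0.49 in CH, against 0.33, 0.39 and 0.38 of all. For the lower genes it was 0.53 in INT, 0.40 in CL and 0.39 in CH. INT replicate 1 was the higher of the INT arrays for 120 of the 237 genes (50.6%), so neither INT array led throughout.

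CL and CH were near each other for most of the set, as a rule that places both on one side of INT favours. The CL minus CH difference had a median of 0.01 for genes higher in INT and -0.01 for genes lower, against -0.01 over all probe sets with 1 gene. The means lay within 0.5 of each other for 84.0% of the 237 genes, against 77.9% of all. Both CL arrays lay above both CH arrays for 21 of the 237 genes (8.86%, against 13.5% of all) and below them for 29 (12.2%, against 14.9%). limma called 0 of the 237 genes between CL and CH, each with an adjusted p of at least 0.9999, and 0 of 22746 over the array (0%), where 803 (3.53%) had an unadjusted p under 0.05. At an unadjusted p under 0.05 there was 1 of the 237, AT4G11210, which was higher in CL by 1.27 and is named after its values were seen, against 3.21% of all probe sets with 1 gene.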

How the data were processed

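Hybridizations of RNA from 6 samples and of genomic DNA to the Affymetrix ATH1 array were used. The deposited values are probe set intensities, which the authors had adjusted by means of the DNA hybridization, per the labels. For the probe summary software and the DNA threshold, the sources used here name none. From 22810 probe sets, 64 controls were left out, leaving 22746. Intensities became log2(intensity + 28.2), the offset being their RNA median divided by 10, and were quantile normalized over the 6 RNA arrays. Array medians as deposited ran from 260.8 to 301.8; arrays have no read depth. Differences between flower types were tested by limma 3.58.1 (R 4.3.3; eBayes with a trend, flower type as the only term, two-sided, Benjamini-Hochberg adjusted p under 0.05), a procedure tested on simulated data. Figures were drawn with matplotlib 3.10.9 (Python 3.11.15). The platform annotation gave 13513 probe sets 1 gene, 503 several and 8794 none. Genes were named by rule: the 12 largest distances in each direction, members with a symbol, list members and genes at the threshold. The members and the 29 symbol-based lists were chosen with earlier results of these data known, and 2 lists were corrected afterwards for stray symbols. The replicates are biological, per the labels, which do not say that equal numbers share a batch. A gene of the meiosis list is not reported here.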

Additional observations from a re-analysis of the deposited data

How the results depend on the processing

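The counts of genes set apart in INT (116 higher, 121 lower) moved with several settings. They were 229 higher and 272 lower with an offset of 1, 49 and 55 with an offset of the median divided by 5, 16 and 19 with a distance of 1.5, 7 and 10 among probe sets with mean level at or above the median, 44 and 41 among those with genomic DNA at or above the median, and 187 and 187 over all 22746 probe sets. Fewer or more probe sets were tested in the last 3 of these. With a replicate block the counts were 122 and 135; they were 171 in all for CL and 171 for CH. Deviations of same-numbered arrays correlated at 0.246 for CL and CH, -0.047 for INT and CL and -0.051 for INT and CH, the labels do not pair them, and the block changed no call. Leaving out single arrays gave 117 to 329 higher and 139 to 412 lower, the highest without INT replicate 1, where 1 INT array has to clear the others; without INT replicate 2 there were 301 and 368. The deposited scale and median scaling kept 112 of the higher and 106 of the lower genes in both. The total for INT stayed above those of CL and CH under every setting except those that left out a CL or CH array, where that type's single array set the count. limma called 0 probe sets in all 3 contrasts under every setting, with a lowest adjusted p of 0.189. INT minus the mean of CL and CH kept its sign for all 237 genes, which the choice of the genes by these values largely fixed in advance. Over 573 values for 42 named genes it moved by more than 1 SD in 57. CL minus CH of the same genes, which was never called, changed sign in 39 of 573. Keeping control probe sets in the normalization, a setting chosen after seeing the data, gave 116 and 121. The cause of the moves was not tested. The dim signal of most of these genes and the 2 arrays per type limit what the counts can show.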

Other observations

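Neighbouring Arabidopsis locus numbers did not share a direction throughout. Of the 237 genes, AT2G04670 and AT2G04675 were both higher in INT, as were AT3G07530 and AT3G07540. AT2G05600 was lower and AT2G05610 higher. AT4G33610 was lower, while AT4G33600 and AT4G33620, on either side of it by number, were higher. By locus code 27.4% of the genes belong to chromosome 1, 13.5% to chromosome 2, 18.1% to chromosome 3, 16.0% to chromosome 4 and 16.0% to chromosome 5 of Arabidopsis, against 23.0%, 14.6%, 18.1%, 12.8% and 19.9% of all probe sets with 1 gene. These are Arabidopsis positions, and the order of the genes in Cardamine was not used here.

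In 8 of the 237 genes replicate 2 exceeded replicate 1 by more than 1 log2 unit in both CL and CH (3.38%, against 2.06% of all probe sets with 1 gene), and 6 of the 8 were higher in INT, ZYP1b and SAP among them. In 5 genes it lay lower by as much (2.11%, against 1.31%). Replicate differences of CL and CH had the same sign in 52.7% of the 237 genes, against 60.1% of all.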
